A study of Rattus norvegicus with 48 samples.

Results

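Cyp1a1, Cyp1a2 and Cyp1b1, the 3 rat genes of the Cyp1 family of cytochrome P450 enzymes that the aryl hydrocarbon receptor is known to control, were followed across precision-cut liver slices, thin sections of living tissue kept outside the body. They were chosen by their Ensembl IDs, ENSRNOG00000019500 (Cyp1a1), ENSRNOG00000016173 (Cyp1a2) and ENSRNOG00000040287 (Cyp1b1), and make up 3 of 32883 rows of the count table. All 3 passed the filter on low counts over all libraries together, which left 14775 genes to test. The 48 RNA sequencing libraries fell into 5 groups, each labelled as liver: slices from sham-operated rats with vehicle (Sham_veh, n = 9), and slices from rats with bile duct ligation (BDL), a surgical block of bile outflow that scars the liver, with vehicle (BDL_veh, n = 10), with Sora (BDL_Sora, n = 10), with Nint (BDL_Nint, n = 10) or with SB525334 (BDL_SB525334, n = 9). The short forms Sora and Nint, which are all the labels give, are taken to mean the multikinase inhibitors sorafenib and nintedanib, and SB525334 blocks ALK5, the kinase of the type I receptor for TGF-beta. In a sample sheet among the deposited files all 9 libraries of the SB525334 group carry a different code, and the label name is used here. The sources used here state no strain, age, vehicle, dose, exposure time or number of animals. Libraries of a group, or of different groups, may therefore share an animal, and the main fit takes no account of such sharing. The p-values measure only the spread among these samples, which may be technical.

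The aryl hydrocarbon receptor is a transcription factor held in the cytoplasm by chaperones until a planar aromatic ligand binds it. It then enters the nucleus, pairs with its partner ARNT and binds short DNA elements near its target genes. Cyp1a1, which oxidises polycyclic aromatic hydrocarbons, is low in resting liver and strongly inducible, and is a common readout of the receptor. Cyp1a2, which metabolises caffeine and aromatic amines, is known as a constitutive enzyme of hepatocytes around the central vein that the receptor raises further. Cyp1b1, which oxidises oestradiol and other steroids, is known mainly from tissues outside the liver and from mesenchymal cells such as fibroblasts and stellate cells. Cyp1a1 and Cyp1a2 are neighbouring genes on the same chromosome, and Cyp1b1 lies on another.

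The core element that the receptor and ARNT bind is written GCGTG, and in its longer form TNGCGTG. The RefSeq promoter table (build GRCr8, while the counts were made on Rnor_6.0) held 2 of the 3 genes, Cyp1a2 and Cyp1b1. The 250 bases before each start site are shown, 5′ to 3′ on the gene's strand, because the receptor is known to act through this element. The genes were chosen by family and not by the element. Capitals mark GCGTG or its reverse complement CACGC. The Cyp1a2 window is chr8:66978150-66978399 on the minus strand and the Cyp1b1 window is chr6:21094315-21094564 on the plus strand.
Cyp1a2: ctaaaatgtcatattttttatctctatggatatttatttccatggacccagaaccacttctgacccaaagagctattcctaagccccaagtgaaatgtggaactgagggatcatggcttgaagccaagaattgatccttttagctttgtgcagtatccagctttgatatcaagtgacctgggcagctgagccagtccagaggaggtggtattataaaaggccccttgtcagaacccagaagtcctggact
Cyp1b1: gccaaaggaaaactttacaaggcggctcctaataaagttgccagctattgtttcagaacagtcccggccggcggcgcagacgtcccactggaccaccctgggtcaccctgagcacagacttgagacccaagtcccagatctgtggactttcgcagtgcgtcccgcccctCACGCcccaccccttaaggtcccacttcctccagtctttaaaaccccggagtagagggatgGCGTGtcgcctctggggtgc
Searched on both strands, the Cyp1b1 window held GCGTG 2 times. The match on the gene's strand begins 20 bases before the start and lies inside the only match to the longer TNGCGTG, and the match on the opposite strand begins 81 bases before the start. The Cyp1a2 window held neither motif. Of 33469 rat windows of the same length 25.9% held GCGTG and 4.09% held TNGCGTG, so the short form is common and the longer form less so. A match to either form is a description, not a binding site. Known elements of Cyp1 genes can lie farther from the start than these windows reach.

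The libraries held between 12249470 and 29596987 counts in total. CPM are the counts scaled to a library of fixed size. Without TMM factors, 3 counts, about the 95% upper limit for an observed 0, stood for 0.101 to 0.245 CPM. Levels are CPM with edgeR's TMM factors. CPM is not corrected for gene length, so levels are compared between groups and not between genes. Cyp1b1 held 115 to 2458 counts per library and Cyp1a1 22 to 2163. Cyp1a2 held 0 to 45 counts in each of the 48 libraries, so its values carry a large counting error throughout. The files do not pair IDs with symbols, so that these counts belong to Cyp1a2 rests on the ID by which it was chosen. Sham libraries held 5 to 18 counts of it, few for an enzyme known as constitutive in liver. They held 823 to 2163 counts of Cyp1a1, which is known as low in resting liver. The reason for this departure from the known pattern was not tested. The authors' quality metrics put 98.37% to 98.99% of first reads on the antisense strand, while no source used here gives the strand setting of the counting. Counts of Cyp1a1 and Cyp1a2 were whole, within 0.001, in 47 of 48 libraries. In Sham_veh library 8 they stood at 1822.9884 and 16.0116 and summed to 1839. A split of reads shared between these similar neighbours is therefore visible in that library only. Whole counts do not show that no reads were shared in the others. The tissue could not be checked against hepatocyte markers, since the files name genes by Ensembl ID alone. In bulk slices, fewer cells of a type and less RNA per cell cannot be told apart.

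Cyp1a1 was highest in sham slices. Its 9 sham libraries ranged from 58.4 to 194 CPM with a median of 90.3, and their mean was 96.6 ± 44.2 CPM (SD, n = 9). Ligated vehicle slices ranged from 3.34 to 23.6 CPM (median 11.7; mean 12.5 ± 6.42, n = 10), so that no vehicle library reached the lowest sham library. Slices with Nint ranged from 13.9 to 48.9 CPM (median 20.8; mean 26.3 ± 12.3, n = 10), also below every sham library. Slices with Sora ranged from 4.97 to 74.8 CPM (median 8.06; mean 16.4 ± 21.2, n = 10). Sora library 7 alone gave the value of 74.8, inside the sham range, and the next highest library of that group held 22.5 CPM. Slices with SB525334 ranged from 1.67 to 21.5 CPM (median 6.73; mean 7.73 ± 6.22, n = 9).

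Cyp1a2 was scarce in every group and scarcest in ligated vehicle slices. Sham libraries held 0.394 to 1.44 CPM (median 0.773; mean 0.795 ± 0.382, n = 9), from 5 to 18 counts. Vehicle libraries of ligated slices held 0 to 0.475 CPM (median 0.168; mean 0.181 ± 0.140, n = 10), from 0 to 7 counts and 30 counts in all, and 9 of the 10 lay below the lowest sham library. Thus the vehicle level was itself near that of 3 counts in a library. Folds of Cyp1a2 against this group, and the share of genes that match them, therefore have a base near 0 counts. With only this group and sham, or this group and a compound group, Cyp1a2 did not pass the filter on low counts. It is tested in those comparisons through the libraries of other groups. Sora libraries held 0.287 to 2.49 CPM (median 0.565; mean 0.864 ± 0.669, n = 10), Nint libraries 0.437 to 2.13 CPM (median 1.37; mean 1.31 ± 0.526, n = 10) and SB525334 libraries 0.228 to 1.63 CPM (median 0.717; mean 0.795 ± 0.468, n = 9). Of these, 8 of 10 Sora, 9 of 10 Nint and 7 of 9 SB525334 libraries lay above the highest vehicle library.

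Cyp1b1 was lowest in sham and, by its mean, highest in ligated vehicle slices. Sham libraries ranged from 7.85 to 44.5 CPM (median 24.1; mean 22.9 ± 10.5, n = 9) and ligated vehicle libraries from 92.2 to 133 CPM (median 106; mean 108 ± 12.8, n = 10), with no overlap. SB525334 libraries ranged from 77.5 to 148 CPM (median 95.9; mean 99.2 ± 20.9, n = 9). Nint libraries ranged from 56.6 to 85.9 CPM (median 75.8; mean 75.2 ± 9.13, n = 10) and Sora libraries from 41.6 to 80.5 CPM (median 49.99; mean 53.1 ± 12.3, n = 10), both wholly below the vehicle libraries. The ligated vehicle group was also the least variable for this gene, with an SD of 11.9% of the mean, beside 12.1% with Nint and 45.7% in sham slices.

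**Figure D1:**
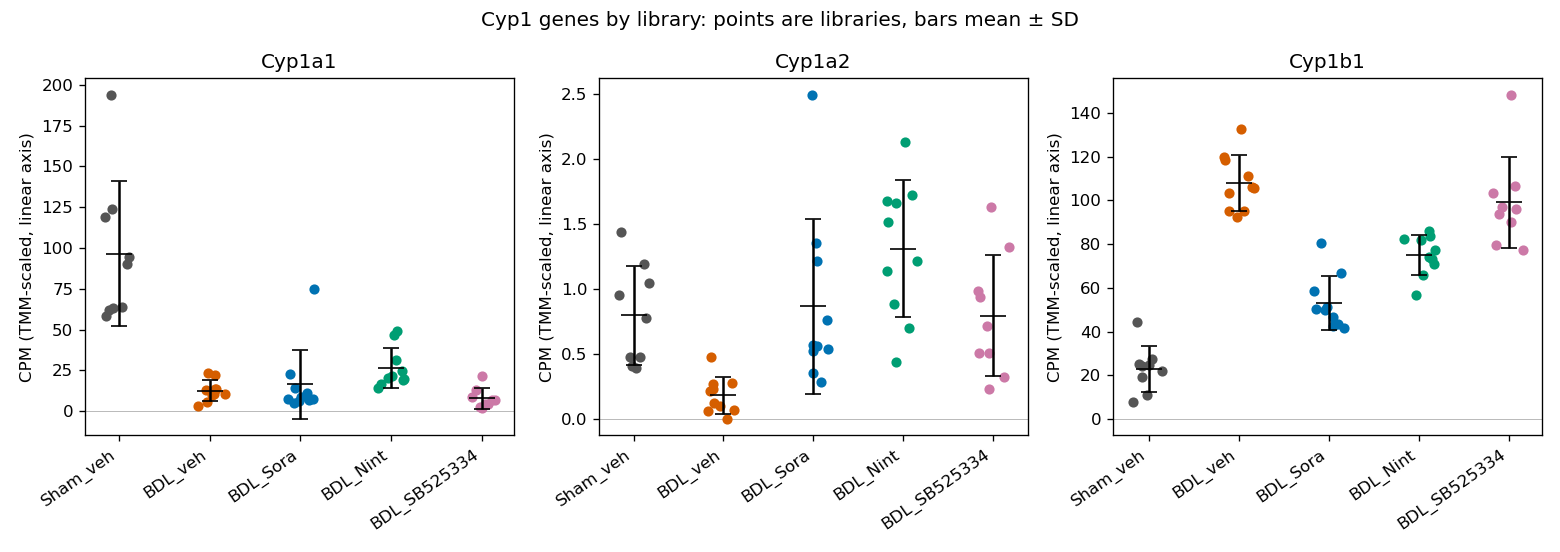
CPM of Cyp1a1, Cyp1a2 and Cyp1b1 in each of the 48 libraries by group on linear axes (points), with the group mean and SD (bars). Cyp1a1 lies between 58.4 and 194 CPM in sham slices, Cyp1a2 is at 0.475 CPM or less in ligated vehicle slices, and Cyp1b1 is at 92.2 CPM or more in ligated vehicle slices.

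The effect of ligation is the contrast of the ligated with the sham group under vehicle. Cyp1a1 and Cyp1a2 fell and Cyp1b1 rose, so all 3 members were called, against 82.2% of all 14775 genes tested (Benjamini-Hochberg adjusted p under 0.05 in the quasi-likelihood test of edgeR; n = 10 and 9). Cyp1a1 was 7.72-fold lower after ligation (-2.95 ± 0.430 as log2 fold change and SE, edgeR adjusted p = 3.41e-08), and 1.14% of tested genes fell at least as far. Cyp1a2 was 4.27-fold lower (log2 fold change -2.09, SE 0.432, edgeR adjusted p = 2.26e-05), a fall that 2.66% of genes matched or passed. With these 2 groups alone Cyp1a2 did not pass the filter on low counts, so it was tested here only through the compound libraries. The vehicle group held 30 counts of it in all. Cyp1b1 was 4.71-fold higher (log2 fold change 2.24, SE 0.172, edgeR adjusted p = 2.65e-16), a rise that 15.7% of genes matched or passed. The rise of Cyp1b1 was therefore of a size common in this contrast, and the fall of Cyp1a1 was not. CPM did not overlap between the groups for Cyp1a1 and Cyp1b1, as for 52.6% of all genes.

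Under Sora, set against vehicle in ligated tissue, Cyp1a2 and Cyp1b1 moved in opposite directions. Cyp1a2 rose 4.55-fold (log2 fold change 2.19, SE 0.416, edgeR adjusted p = 5.65e-05; n = 10 and 10), and Cyp1b1 fell to 0.492 of its vehicle level (log2 fold change -1.02, SE 0.158, edgeR adjusted p = 1.61e-06). With 2 of 3 members called, the background was 29.3% of all genes. Libraries did not overlap for Cyp1b1, as for 7.7% of all genes, and did for Cyp1a2. A rise as large as that of Cyp1a2 was seen in 0.636% of genes and a fall as large as that of Cyp1b1 in 2.50%. The rise of Cyp1a2 has a base of 30 vehicle counts in all. With these 2 groups alone Cyp1a2 did not pass the filter on low counts. For Cyp1a1 the log2 fold change was 0.39 with SE 0.410 (edgeR adjusted p = 0.519), with a 95% interval of -0.43 to 1.22. Without Sora library 7, an alternative chosen after seeing the data, the estimate turned to -0.35 (SE 0.350, edgeR adjusted p = 0.509), and it was -0.01 with the column of the position code in the labels as a factor.

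Slices with Nint gave the same directions for Cyp1a2 and Cyp1b1. Cyp1a2 rose 7.03-fold over vehicle (log2 fold change 2.81, SE 0.406, edgeR adjusted p = 4.31e-07, n = 10 and 10). That rise was matched or passed by 0.122% of genes, from a base of 30 vehicle counts in all. Here too Cyp1a2 did not pass the filter on low counts with the 2 groups alone. Cyp1b1 fell to 0.696 of its vehicle level (log2 fold change -0.52, SE 0.156, edgeR adjusted p = 0.0102). Again 2 of 3 members were called, against 24.3% of all genes, and again only Cyp1b1 of the 3 had no overlap between libraries, as had 7.71% of all genes. Cyp1a1 was 2.10-fold the vehicle level (log2 fold change 1.07, SE 0.409), with an edgeR adjusted p of 0.0502 that misses the threshold and an unadjusted 95% interval of 0.24 to 1.89. Of 11 other settings 6 put it past the threshold, with adjusted p from 0.00958 to 0.152 over the 11, and it was past the threshold without vehicle library 4 or 5 or Nint library 1 or 2 (edgeR adjusted p = 0.031, 0.0339, 0.0412 and 0.0455).

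Slices with SB525334 differed from vehicle in Cyp1a2 among the 3 genes. Cyp1a2 rose 4.22-fold (log2 fold change 2.08, SE 0.440, edgeR adjusted p = 4.55e-05; n = 9 and 10), and 1.79% of genes rose at least as far. That is 1 of 3 members called, against 73% of all genes. The called member, Cyp1a2, did not pass the filter on low counts with these 2 groups alone. For Cyp1a1 the log2 fold change was -0.71 with a 95% interval of -1.61 to 0.19 (SE 0.448, edgeR adjusted p = 0.15) and for Cyp1b1 it was -0.12 with an interval of -0.45 to 0.20 (SE 0.161, edgeR adjusted p = 0.494). Both calls depended on the scaling of the libraries. When libraries were scaled by total counts alone, which moved the median log2 change of all genes from 0.036 to -0.38, Cyp1a1 stood at -1.15 and Cyp1b1 at -0.55, both past the threshold (edgeR adjusted p = 0.0194 and 0.00116). Cyp1a1 was also past it with the column of the position code as a factor (-1.17, edgeR adjusted p = 0.0241), by limma on the authors' log2 values (-0.90, adjusted p = 0.0460) and without SB525334 library 5 (-1.07, edgeR adjusted p = 0.0352). Of 12 other settings 9 left Cyp1a1 short of the threshold. Among these, without SB525334 libraries 1, 6 and 8, its log2 fold change was -0.30 (edgeR adjusted p = 0.595). The 3 compound contrasts share the same vehicle libraries, with their 30 Cyp1a2 counts, so the 3 rises of Cyp1a2 are not independent of each other.

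**Figure D2:**
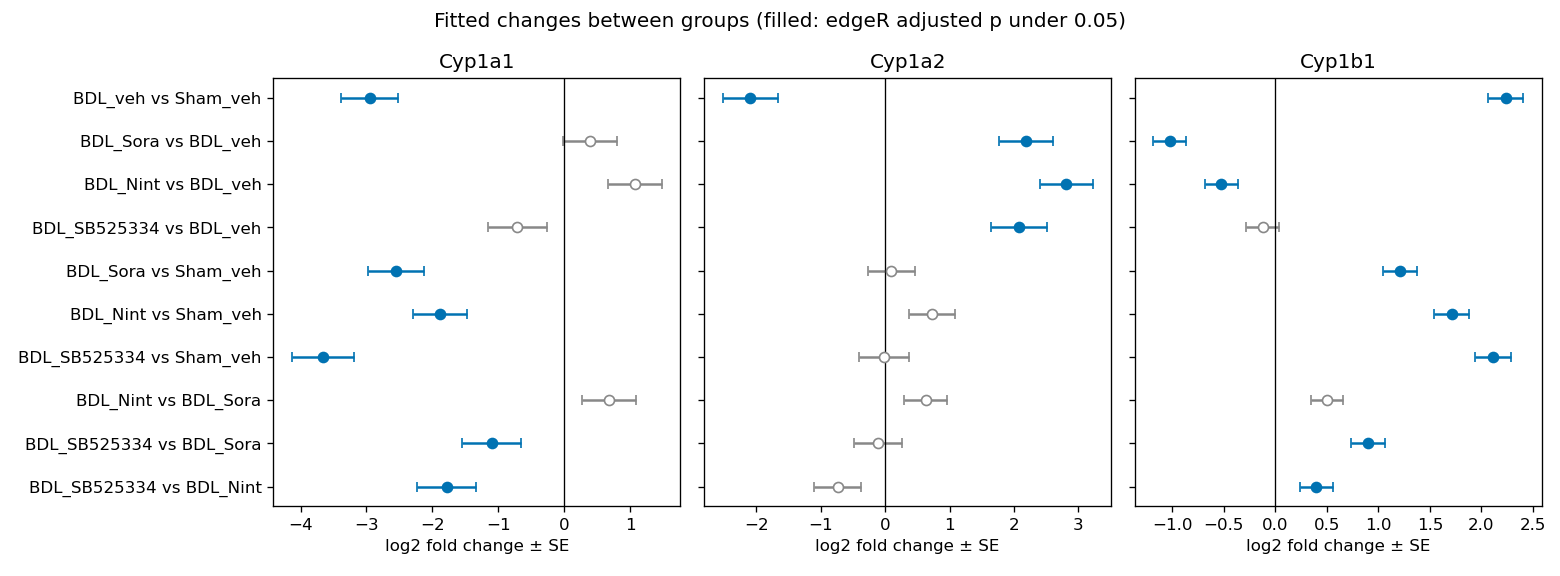
Log2 fold change (first group over second) with its standard error for the 3 genes in 10 comparisons; filled points passed an edgeR adjusted p of 0.05. Cyp1a1 lies left of 0 and Cyp1b1 right of 0 in each of the 4 comparisons against sham, while Cyp1a2 lies right of 0 in the 3 comparisons of a compound with vehicle.

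Set against sham slices, the compound groups kept a low Cyp1a1 and a raised Cyp1b1. Cyp1a1 was 5.88-fold lower than in sham slices with Sora (log2 fold change -2.56, SE 0.422, edgeR adjusted p = 4.98e-07), 3.68-fold lower with Nint (-1.88, SE 0.411, adjusted p = 6.14e-05) and 12.6-fold lower with SB525334 (-3.66, SE 0.473, adjusted p = 2.06e-09). Without Sora library 7 the first of these was -3.30. Cyp1b1 was 2.32-fold higher than sham with Sora (edgeR adjusted p = 9.96e-09), 3.28-fold with Nint (adjusted p = 9.9e-13) and 4.32-fold with SB525334 (adjusted p = 3.38e-15). Cyp1a2 did not pass the test against sham in any of the 3 groups. Its log2 fold change was 0.09 with Sora (95% interval -0.64 to 0.83; edgeR adjusted p = 0.819), 0.72 with Nint (0.0033 to 1.44; adjusted p = 0.0601) and -0.02 with SB525334 (-0.79 to 0.76; adjusted p = 0.971). For Nint the call turned on the setting: 4 of 9 other settings passed, among them total counts (1.04, edgeR adjusted p = 0.00681). It turned also on Sham_veh libraries 1 and 6 and Nint libraries 2 and 5, without each of which it passed (adjusted p = 0.0315, 0.0429, 0.042 and 0.0312). In these comparisons, called genes were 80.4% of those tested for Sora, 80.9% for Nint and 81.2% for SB525334, beside 2 of 3 members each. Cyp1a1 and Cyp1b1 did not overlap with sham under Nint or SB525334, as for 50.3% and 41.5% of all genes. Under Sora all 3 genes overlapped with sham, and the share over all genes was not computed there. For Cyp1a1 that overlap came from Sora library 7 alone (74.8 CPM, the next 22.5 CPM, the lowest sham library 58.4 CPM).

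Between compounds, no member passed the test for Nint against Sora. Nint against Sora gave log2 fold changes of 0.68 for Cyp1a1 (95% interval -0.14 to 1.49; edgeR adjusted p = 0.435), 0.63 for Cyp1a2 (-0.05 to 1.31; adjusted p = 0.37) and 0.50 for Cyp1b1 (0.18 to 0.82; adjusted p = 0.0764), so 0 of 3 members were called, against 2.32% of all genes. At an unadjusted p under 0.05 the count is 1 of 3 (Cyp1b1), against 15.7% of all genes. Sora library 7 decided part of this: without it Cyp1a1 was higher with Nint by 1.42 and Cyp1b1 by 0.59 on the log2 scale (edgeR adjusted p = 0.0259 and 0.0408), and DESeq2 also called Cyp1b1 (0.51, adjusted p = 0.0357). With limma-voom and sample weights all 3 passed (0.95, 0.88 and 0.54; adjusted p = 0.0325, 0.0142 and 0.000486). Cyp1b1 was higher with SB525334 than with Sora with a log2 difference of 0.90 (SE 0.162, edgeR adjusted p = 3.31e-06) and than with Nint by 0.40 (SE 0.161, adjusted p = 0.0245). The latter was lost with total counts (0.0055, adjusted p = 0.975), with genes of at least 5 CPM only (0.34, adjusted p = 0.0508), by limma on the authors' log2 values (0.37, adjusted p = 0.0508) and without SB525334 library 4 (adjusted p = 0.0828).

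Cyp1a1 was lower with SB525334 than with Nint with a log2 difference of -1.78 (SE 0.448, edgeR adjusted p = 0.000478) and than with Sora by -1.10 (SE 0.446, adjusted p = 0.0249). The difference from Sora was lost without Sora library 7 (-0.36, edgeR adjusted p = 0.389), without SB525334 library 1 (adjusted p = 0.0508) and without SB525334 library 8 (adjusted p = 0.0523). Cyp1a2 differed between SB525334 and Sora by -0.11 (95% interval -0.86 to 0.64; edgeR adjusted p = 0.801) and between SB525334 and Nint by -0.74 (-1.47 to -0.0049; adjusted p = 0.0654). The latter passed without Nint libraries 2 or 5 or SB525334 libraries 4 or 5 (adjusted p = 0.0467, 0.035, 0.0405 and 0.0252). With SB525334, 72.4% of all genes were called against Sora and 72.7% against Nint, beside 2 of 3 members in each.

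By mean CPM, Cyp1a1 ran from sham through Nint, Sora and vehicle to SB525334, and of these 4 neighbouring pairs only sham and Nint differed by the edgeR test. By median, Sora (8.06 CPM) lay below vehicle (11.7 CPM), and its place above vehicle rests on library 7. Cyp1a2 ran from Nint through Sora, sham and SB525334 to vehicle, where only SB525334 and vehicle differed. By median, Sora (0.565 CPM) lay below sham (0.773 CPM) and SB525334 (0.717 CPM). Cyp1b1 ran from vehicle through SB525334, Nint and Sora to sham, where vehicle and SB525334, and Nint and Sora, did not differ beyond the test's threshold.

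Ratios between the genes within a library do not depend on how libraries are scaled. The log2 ratio of Cyp1a1 to Cyp1a2 counts (0.5 added to each) ranged from 6.002 to 8.16 in sham libraries (mean 6.89 ± 0.681, n = 9) and from 4.33 to 7.29 in ligated vehicle libraries (6.03 ± 1.02, n = 10). It was 3.91 ± 0.869 with Sora (n = 10), 4.30 ± 0.782 with Nint (n = 10) and 3.05 ± 0.579 with SB525334 (n = 9), and with each compound it lay wholly below the sham range. Against vehicle, the ratio was lower with Sora by a difference of -2.12 (two-sided permutation test, adjusted p = 0.000562 over 30 tests), with Nint by -1.74 (permutation test, adjusted p = 0.00155) and with SB525334 by -2.98 (exact permutation test, adjusted p = 9.99e-05). These sizes depend on the offset: with 3 counts added in place of 0.5 the differences were -1.38, -0.92 and -2.32 (permutation tests, exact for SB525334, adjusted p = 0.00377, 0.0172 and 7.22e-05). The 2 neighbouring genes thus changed unequally under each compound. For ligated vehicle against sham slices the difference was -0.85 (exact permutation test, adjusted p = 0.0572), and it was -1.53 (adjusted p = 9.28e-05) with 3 counts added.

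The ratio to Cyp1b1 moved furthest with ligation. Log2 Cyp1a1/Cyp1b1 was 2.11 ± 0.763 in sham libraries (n = 9) and -3.30 ± 0.830 in ligated vehicle libraries (n = 10), with no overlap (difference -5.41, exact permutation test, adjusted p = 6.5e-05). It rose against vehicle with Sora, to -2.24 ± 0.933 (n = 10; permutation test, adjusted p = 0.0141), and with Nint, to -1.63 ± 0.646 (n = 10; adjusted p = 9.99e-05). With SB525334 it stood at -4.04 ± 1.04 (n = 9; exact permutation test, adjusted p = 0.115 against vehicle). Log2 Cyp1a2/Cyp1b1 was -4.78 ± 1.17 in sham and -9.33 ± 1.158 in vehicle libraries, and -6.15 ± 0.728, -5.93 ± 0.636 and -7.09 ± 0.751 with Sora, Nint and SB525334. Each compound lay above vehicle in this ratio (permutation tests, exact for SB525334, adjusted p = 6.5e-05, 6.5e-05 and 0.000238), and Sora and Nint did so with no overlap between libraries. For Sora and Nint the unadjusted permutation p, 1e-05, is the smallest that 100000 draws can give. For Sora, Nint and SB525334 the differences were 3.18, 3.41 and 2.25, and 2.44, 2.57 and 1.62 with 3 counts added. For vehicle against sham they were -4.56 and -3.84.

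**Figure D3:**
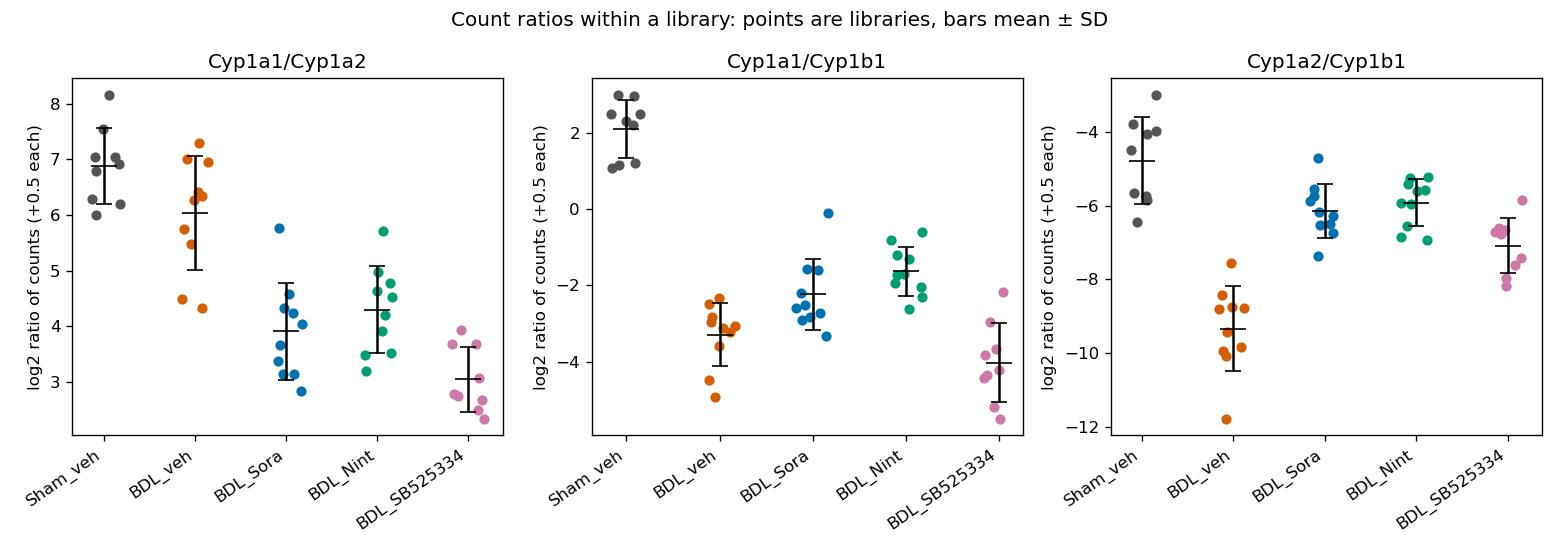
Log2 ratios of the counts of each pair of genes within each library (points; 0.5 added to each count) with group mean and SD (bars). Cyp1a1/Cyp1a2 averages 6.89 in sham and 3.05 to 4.30 in the 3 compound groups, and Cyp1a1/Cyp1b1 averages 2.11 in sham and -3.30 in ligated vehicle slices.

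Within groups, Cyp1a1 varied most between libraries of the Sora group, where the SD was 129% of the mean, followed by SB525334 (80.4%), vehicle (51.4%), Nint (46.8%) and sham (45.8%). Libraries that held more Cyp1a1 tended to hold more Cyp1a2 in the SB525334 group (Pearson r = 0.86, Spearman rho = 0.78, n = 9; exact permutation p = 0.0034 and 0.0172), with adjusted p of 0.0510 and 0.129 over 15 correlations, so neither passed. Without the 2 libraries farthest from the median the r was 0.65. In the Sora group r was 0.67 and rho 0.64 (n = 10; permutation p = 0.0357 and 0.0539, adjusted p = 0.134 and 0.269), and r was 0.36 without the 2 farthest libraries. For the same 2 genes r was lower in the sham, vehicle and Nint groups, at 0.44, 0.48 and 0.26. Without the 2 farthest libraries these were -0.099, 0.25 and -0.0057. None of the 15 correlations passed an adjusted p of 0.05 for r, and 4 had an unadjusted permutation p under 0.05. The r of 0.80 between Cyp1a1 and Cyp1b1 with Sora (rho 0.47, n = 10; permutation p = 0.00918 and 0.178, adjusted p = 0.0688 and 0.385) fell to -0.05 without the 2 farthest libraries, so it rests on those.

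With each group's mean removed, the gene whose log2 CPM was most like that of Cyp1a2 across the 48 libraries was Cyp1a1, with the highest Pearson r (0.60) of 14774 other genes. It was also the highest, at 0.595, without Sora library 7. Seen from Cyp1a1, Cyp1a2 ranked 7 of 14774 with all libraries and 135 without that library. Cyp1b1 ranked 1822 for Cyp1a1 (r = 0.348) and 3739 for Cyp1a2 (r = 0.15). Over the 48 libraries with group means kept, the gene most like Cyp1b1 was ENSRNOG00000042189 (r = 0.94, and 0.72 with group means removed) and the gene most like Cyp1a1 was ENSRNOG00000020297 (r = 0.83). With group means kept, the gene most like Cyp1a2 was ENSRNOG00000015438 (r = 0.73), and its r with Cyp1a1 was 0.406. These are descriptions over libraries that share groups and depth, and the files give no symbol for any of these IDs.

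**Figure D4:**
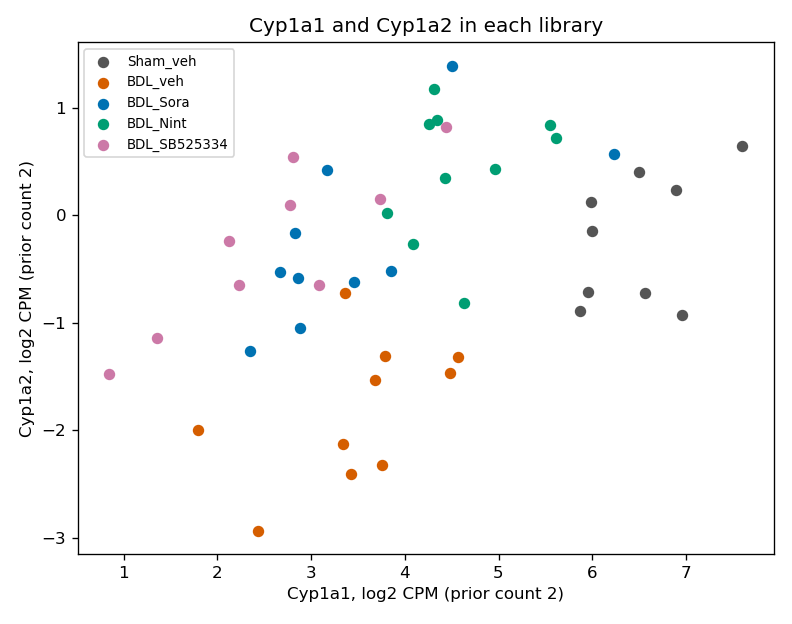
Log2 CPM (prior count 2) of Cyp1a1 and Cyp1a2 in each of the 48 libraries, coloured by group. Sham libraries lie at the right at middle height, ligated vehicle libraries at the bottom, and libraries with a compound lie left of sham, other than Sora library 7, at heights that overlap it.

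Fits were also made without SB525334 libraries 1, 6 and 8 and without vehicle libraries 3 and 6. SB525334 libraries 1, 6 and 8, in which fewer reads mapped non-uniquely than in the rest of that group (9.85% to 11.3%, the others 13.4% to 20.9%), held 2.42, 4.23 and 1.67 CPM of Cyp1a1, and the other 6 libraries 4.58 CPM or more. Their Cyp1b1, at 90.1, 79.7 and 77.5 CPM, was the lowest of the group. Libraries 1 and 8 also held the lowest Cyp1a2 of the group (0.323 and 0.228 CPM), while Cyp1a2 in library 6 was the group's median (0.717 CPM). In SB525334 library 4, whose Cyp1b1 was highest, the mitochondrial share (4.49%) and the non-unique share were the highest of the group. Without libraries 1, 6 and 8 the log2 fold change of Cyp1a1 between SB525334 and Sora was -0.69 (edgeR adjusted p = 0.197). Vehicle libraries 3 and 6 held the lowest Cyp1a1 of their group, 3.34 and 5.27 CPM, and 2 and 0 counts of Cyp1a2, but not the lowest Cyp1b1 (103 and 118 CPM). Their shares of non-uniquely mapped reads, 8.58% and 8.70%, lay within the range of the other vehicle libraries. Leaving them out changed no call against vehicle for the 3 genes. The part that library quality has in these values was not tested. The mean mitochondrial share of alignments also varied with the group, at 2.25% in sham, 1.42% in vehicle, 1.72% with Sora, 1.51% with Nint and 2.86% with SB525334, and its part was not tested either.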

How the data were processed

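RNA was sequenced from rat liver slices in 48 libraries of 5 groups, taken from the sample titles. Per the submitters' processing notes RSEM, which estimates counts per gene, and edgeR were used with genome build Rnor_6.0; no source used here gives versions, aligner or annotation. The count table deposited by the authors holds expected counts, not normalised, which were rounded to whole numbers. The authors' deposited log2 CPM table, of genes its name calls expressed and protein coding, served as an alternative. The deposited quality metrics mix counts, shares and other scores. All columns were used.

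Genes were filtered with filterByExpr by group (14775 of 32883 kept) and libraries scaled with TMM. The quasi-likelihood test of edgeR 4.0.16 (R 4.3.3, robust) was fitted to all 48 libraries with 1 coefficient per group and no covariate, for 10 comparisons, and p-values were Benjamini-Hochberg adjusted over all 14775 genes. Intervals are at the 95% level, from standard errors derived from the F statistic. Ratios and correlations between members used two-sided permutation tests, exact except where both groups of a ratio, or the group of a correlation, held 10 libraries (100000 draws), with NumPy 2.4.6 in Python 3.11.15. The scripts were tested on simulated data. Alternatives were RLE factors, total counts, DESeq2 1.42.0, no filter, 5 CPM in at least 9 libraries, only the 2 groups compared, voom with sample weights and limma on the authors' log2 values (limma 3.58.1), replicate number as a block, position column, leaving out each library, SB525334 libraries 1, 6 and 8 or vehicle libraries 3 and 6, and 3 counts as the ratio offset. Leaving out Sora library 7 was chosen after seeing the data.

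The members, lists and alternatives were chosen with earlier results of these data known. Named genes were the 3 members and the genes most like each by Pearson r. Symbols come from the choice of members: the RefSeq table used here (GRCr8, 47357 genes) pairs 0 Ensembl IDs with symbols, so other receptor genes and cell type markers, listed by symbol, were not analysed here.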

Additional observations from a re-analysis of the deposited data

Results flagged for a closer look

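In sets of 9 or 10 libraries, 4 of 30 (levels and ratios of the 3 genes in each group) had a library far from the others by the gap between it and its neighbour relative to the whole range. The cutoff gives about 1 in 20 by chance only for normally distributed values, and the levels were screened as linear CPM. All 4 were the highest library of a level, and no log2 ratio was flagged. Levels on a log2 scale were not screened, so no excess over chance is read from this count. Cyp1a1 stood at 74.8 CPM in Sora library 7, where the next library held 22.5 CPM. Cyp1a2 stood at 2.49 CPM in Sora library 1, from 34 counts, beside 1.36 CPM in the next. Cyp1a1 stood at 194 CPM in Sham_veh library 1, with 124 CPM in the next. Cyp1b1 stood at 148 CPM in SB525334 library 4, with 107 CPM in the next, and that library also had the highest share of non-uniquely mapped reads (20.85%) and of mitochondrial alignments (4.49%). Sora library 7 held the highest Cyp1b1 of its group as well, at 80.5 CPM.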

How the results depend on the processing

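Over 9 to 12 further settings per result, of 321 fitted values of the 3 genes 278 kept their direction and side of the edgeR threshold, 7 lost the call, 24 gained it and 12 changed sign. Of the ratios, 29 of 30 kept theirs, and Cyp1a1/Cyp1a2 for vehicle against sham passed at -1.53 with 3 counts added. The calls for ligation, for Cyp1a2 under each compound against vehicle, and for Cyp1b1 under Sora and Nint against vehicle were kept in every setting that gave a value. Cyp1a2 gave none with the 5 CPM filter, nor with 2 groups alone for ligation, for each compound against vehicle and for SB525334 against Sora, where it did not pass the filter on low counts: it enters those comparisons through the libraries of other groups. The causes of the changes were not tested.

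Cyp1a1 for Nint against vehicle passed with 5 CPM (1.07), 2 groups alone (1.06), voom (0.95), the authors' log2 values (1.14) and DESeq2 (1.04). Cyp1a1 for SB525334 against vehicle passed with total counts (-1.15), the position column (-1.17) and the authors' values (-0.90), and Cyp1b1 with total counts (-0.55). Cyp1a2 for Nint against sham passed with RLE (0.79), total counts (1.04), 2 groups alone (0.76) and DESeq2 (0.79). Cyp1b1 for Nint against Sora passed with total counts (0.53), 2 groups alone (0.50), voom (0.54), DESeq2 (0.51) and without Sora library 7 (0.59). For the same pair Cyp1a1 passed with voom (0.95) and without that library (1.42), and Cyp1a2 with voom (0.88). Cyp1a2 for SB525334 against Nint passed with total counts (-1.13) and 2 groups alone (-0.75). Cyp1b1 for that pair was lost with total counts (0.0055), 5 CPM (0.34) and the authors' values (0.37). Cyp1a1 for SB525334 against Sora was lost with 2 groups alone (-1.11), voom (-0.98), without SB525334 libraries 1, 6 and 8 (-0.69) and without Sora library 7 (-0.36).

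Signs changed only for values short of the threshold: Cyp1a1 for Sora against vehicle (position column -0.0124; without Sora library 7 -0.35), Cyp1a2 for Sora against sham (voom -0.28; without Sora library 7 -0.0105), Cyp1a2 for SB525334 against sham (RLE 0.0140, position column 0.0147, DESeq2 0.0192, without libraries 1, 6 and 8 0.30) and Cyp1a2 for SB525334 against Sora (voom 0.16; without libraries 1, 6 and 8 0.21).

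The replicate numbers were not shown to pair the libraries: 25 of 93 same-numbered pairs correlated over 0.1 and 6 of 48 libraries correlated best with their own number. By number, the mean r ran from -0.037 (number 1) to 0.113 (number 5). Pairs of unlike numbers were not summarised for comparison, so the check cannot exclude pairing. With the replicate block Cyp1a1 for Nint against vehicle passed (1.14, edgeR adjusted p = 0.0294), Cyp1a2 turned to -0.0349 for Sora against sham and to 0.000259 for SB525334 against Sora, and no other call of the 3 genes changed; called genes for Nint against Sora went from 203 higher and 140 lower to 187 and 123.

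With 1 library left out, the log2 fold change ranged for Cyp1a1 from 0.92 to 1.22 (Nint against vehicle), -1.07 to -0.56 (SB525334 against vehicle), -0.35 to 0.54 (Sora against vehicle), 0.53 to 1.42 (Nint against Sora) and -1.46 to -0.36 (SB525334 against Sora). For Cyp1a2 it ranged from -0.20 to 0.23 (Sora against sham), 0.61 to 0.86 (Nint against sham), -0.21 to 0.12 (SB525334 against sham), -0.30 to 0.20 (SB525334 against Sora) and -0.93 to -0.61 (SB525334 against Nint). For Cyp1b1 it ranged from 0.47 to 0.59 (Nint against Sora) and 0.31 to 0.44 (SB525334 against Nint). Total counts moved the median of all genes for ligation from -0.045 to 0.30 and the split of calls from 5911 higher and 6235 lower to 7861 and 4035. For SB525334 against vehicle the split went from 5642 higher and 5143 lower to 2767 and 8516. Depth limits Cyp1a2 most, with at most 45 counts in a library.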
